A study of Mus musculus with 15 samples.

Results

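Hepatocyte messenger RNA of ΔEGFR transgenic mice was set against that of wild-type (WT) mice after both had been given carbon tetrachloride (CCl4). The libraries were chosen by their labels alone, all those with the treatment CCl4, which gave 4 ΔEGFR and 3 WT libraries, 7 of the 15 in the series. The other 8, 4 of each genotype given mineral oil, the usual carrier of CCl4, entered the estimate of the spread and served as a side-by-side comparison. Every library is described as primary mouse hepatocytes. Published work describes ΔEGFR as a shortened human epidermal growth factor receptor that lacks the kinase part, is made in hepatocytes and acts as a dominant negative. The labels used here give neither the construct nor the promoter, and they give no strain, sex, age, dose, number of injections, time of sampling or animal for any group. The p-values therefore measure the spread between these libraries.

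The EGF receptor is a tyrosine kinase at the cell surface that pairs with its relatives ErbB2, ErbB3 and ErbB4, binds ligands such as TGF-alpha, and signals through the ERK kinases. Hepatocytes carry much of it and use it in regeneration. CCl4 is turned into a toxic radical by Cyp2e1, an enzyme of the hepatocytes around the central vein, so the injury begins in this pericentral zone, whose gene programme is maintained by Wnt signalling.

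No single gene passed the main test for a genotype difference. Expression is given in CPM, a gene's counts scaled to a common library total with TMM factors, and differences as log2 fold changes, ΔEGFR over WT, ± standard error. Of 17975 genes tested with edgeR's quasi-likelihood test, 0 had a Benjamini-Hochberg adjusted p under 0.05 (0% called), and the lowest adjusted p was 1. Without adjustment 411 genes (2.29%) had a p under 0.05, of which 238 (1.32%) were higher in ΔEGFR and 173 (0.962%) lower. Where nothing differs, a calibrated test puts a share of 0.05 below that threshold, and 2.29% is less. The number 411 is thus by itself no sign of a genotype difference. The split depended on the scaling, with 290 higher and 117 lower under upper-quartile factors and 339 higher and 92 lower with no scaling factor, while the median over all genes moved by no more than a few hundredths. DESeq2 called 2 genes, Dbp and Nxpe2, at 572 with an unadjusted p under 0.05. Limma-voom called 0 with 500, and limma on log2(TPM + 1) called 0 with 475. All values below are therefore descriptions of these libraries unless a call is stated.

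The 4 ΔEGFR values lay wholly above the 3 WT values for 482 genes (2.68%) and wholly below them for 427 (2.38%), 909 in all (5.06%). Both this and an unadjusted p under 0.05 held for 163 genes in the higher and 94 in the lower direction. The absence of calls does not show that the genotypes were alike. The 95% interval of the fold change had a median half-width of 0.776 on the log2 scale, and it lay within a 2-fold change in both directions for 8782 genes (48.9%). For the 10046 genes whose log2 CPM averaged 2 or more, that held for 7728 (76.9%).

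**Figure D1:**
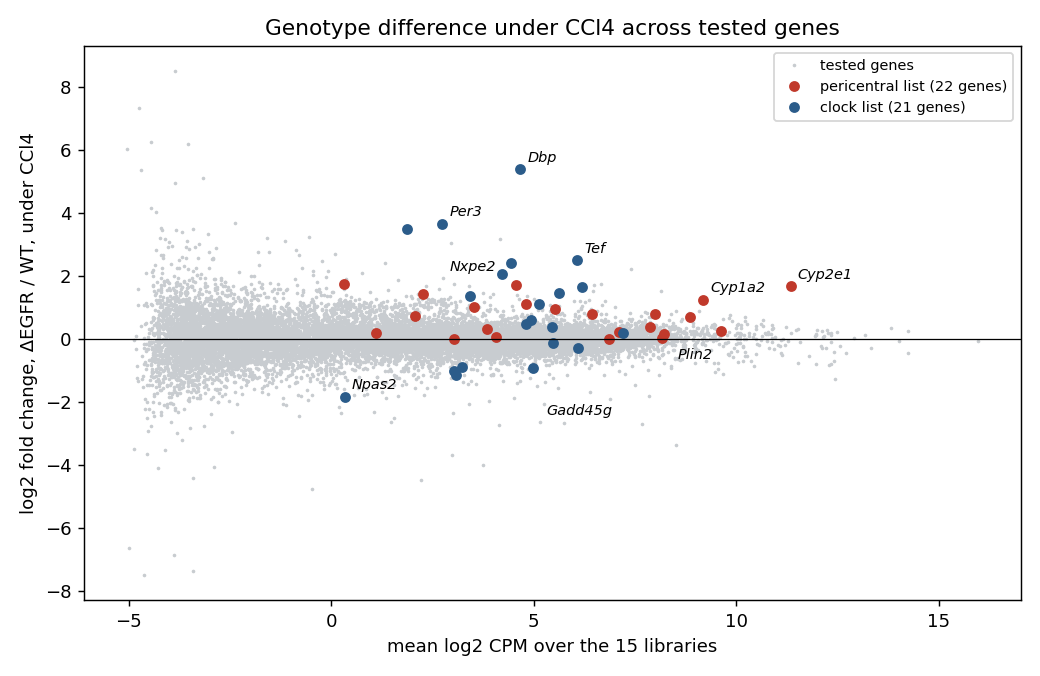
Each grey point is 1 of 17975 tested genes, with mean log2 CPM over the 15 libraries on the horizontal axis and the log2 fold change of ΔEGFR over WT under CCl4 on the vertical axis; red points are the 22 tested pericentral genes and blue points the 21 tested clock genes. Most red points lie above 0, and the clock genes lie on both sides, from Npas2 at −1.83 to Dbp at 5.39.

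Total counts, in megacounts (M), were 51.9 to 155.4 M for the WT libraries and 51.7 to 121.1 M for the ΔEGFR libraries. Correlations of log2 CPM between libraries were 0.953 to 0.979 within WT (3 pairs), 0.966 to 0.98 within ΔEGFR (6 pairs) and 0.96 to 0.984 between genotypes (12 pairs). The genotypes overlapped on the first principal component (33% of the variance). WT replicate 1 stood apart there at 78.6, against −54.6 and −21.4 for the other WT libraries and −37.5 to 37.5 for ΔEGFR. The genotypes also overlapped on the second component (20.3%). On the third (17.9%) they lay apart, at −53.8 to −15.7 in WT and 3.8 to 56.9 in ΔEGFR. Hepatocyte genes dominated every library: Alb, which encodes albumin, measured 35266 to 75647 CPM in WT and 33354 to 91978 in ΔEGFR. Transcripts of other cells were present in all 7. Summed up as mean log2 CPM, 14 Kupffer cell markers scored 6.42 to 7.38 in WT and 6.32 to 7.58 in ΔEGFR, and 20 macrophage and monocyte markers 5.34 to 6.67 and 5.52 to 6.27. None of 11 such scores separated the genotypes. Their exact two-sided permutation p ran from 0.1714 (neutrophils, Benjamini-Hochberg adjusted 0.9714) to 0.9714, and the smallest p that 35 splits allow is 0.0571. In bulk RNA, fewer cells of a type and less RNA per cell cannot be told apart.

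The receptor's own gene was not separated by genotype. Egfr measured 361, 216 and 202 CPM in the 3 WT libraries and 108, 182, 269 and 220.1 in the 4 ΔEGFR libraries. The ranges overlap, and the difference was −0.42 ± 0.41 on the log2 scale (95% interval −1.30 to 0.46, unadjusted p = 0.324, adjusted p = 1, edgeR). Reads of a human transgene need not count toward the mouse gene, so this value does not check the genotype labels. Tgfa, a ligand, measured 55.7, 27.1 and 27.8 CPM in WT and 57.6, 51.7, 39.2 and 27.2 in ΔEGFR. Shc1, an adaptor that links the receptor to Ras, stood at 69.6 to 94.2 CPM in WT and 56.4 to 77.4 in ΔEGFR. Erbb4 was barely detected, with 6, 0 and 31 counts in WT and 45, 149, 32 and 181 in ΔEGFR. In CPM it did not overlap (0 to 0.148 against 0.285 to 1.45), and its log2 fold change of 3.23 ± 0.89 (unadjusted p = 0.00287 and adjusted p = 1, edgeR) went down to 0.13 on the log2(TPM + 1) scale, where so low a gene barely moves. It was the only 1 of 16 tested receptor family and adaptor genes at an unadjusted p under 0.05, and the median of the list was −0.08, against −0.01 over all genes.

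ERK output genes stood lower in ΔEGFR as a list, a pattern that rested largely on 1 WT library. All 22 tested members were negative and their median was −0.41, but 1 of 22 had an unadjusted p under 0.05. Fos, an immediate early transcription factor, measured 495, 79 and 135 CPM in WT and 71, 84.1, 51.5 and 85.8 in ΔEGFR (−1.69 ± 0.75, unadjusted p = 0.041, adjusted p = 1, edgeR). Its highest value, in WT replicate 1, was several times any other. Egr1, another immediate early factor, measured 598, 295 and 227 CPM in WT and 201, 168, 180.2 and 212 in ΔEGFR, with no overlap but an unadjusted p of 0.139. Without WT replicate 1 the median of the list was −0.09. Immediate early genes also respond to cell isolation: the 22 heat shock and dissociation genes had a median of −0.43, which was −0.68 to −0.06 as single CCl4 libraries were left out, and their part in these values was not tested. Ccnd1, cyclin D1, which drives entry into the cell cycle, measured 234, 192 and 183 CPM in WT and 182, 221, 165 and 179 in ΔEGFR, a difference of −0.12 (95% interval −1.09 to 0.84). In mineral oil the same gene stood at 35.6 ± 24.1 CPM in WT and 132 ± 62.6 in ΔEGFR (SD, n = 4 each; log2 fold change 1.88, unadjusted p = 0.000698), and the interaction had an unadjusted p of 0.00582 (adjusted p = 1, edgeR).

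Pericentral genes stood higher in ΔEGFR hepatocytes under CCl4. Of 22 tested members 20 had positive log2 fold changes, 8 had an unadjusted p under 0.05 and all 8 were higher, against 1.32% of all genes. The 4 ΔEGFR values lay wholly above the WT values for 7 members, against 2.68% of all genes, and the median was 0.72 against −0.01. The median in mineral oil, between different libraries, was 0.00.

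Cyp2e1, which activates CCl4, measured 331, 989 and 539 CPM in WT and 1700.1, 2372, 2046 and 1852 in ΔEGFR. Each ΔEGFR library lay above the highest WT library, and the fold change was 3.22 (log2 1.69 ± 0.46, 95% interval 0.69 to 2.68, unadjusted p = 0.00283, adjusted p = 1, edgeR). In mineral oil Cyp2e1 stood at 6435 ± 2235 CPM in WT and 5009 ± 2455 in ΔEGFR (SD, n = 4 each), so both CCl4 groups were below both oil means, and the interaction of genotype and treatment had an unadjusted p of 0.00499 (adjusted p = 1). Cyp1a2, a caffeine and drug oxidase, measured 249, 359 and 233 CPM in WT and 437, 517, 918 and 788 in ΔEGFR, again without overlap (1.25 ± 0.35, unadjusted p = 0.00322, adjusted p = 1, edgeR).

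Members that are direct Wnt targets or regulators were among them. Axin2, the feedback inhibitor of beta-catenin, measured 7.36, 15.3 and 9.06 CPM in WT and 23.7, 22.8, 22.7 and 16.3 in ΔEGFR (1.01 ± 0.31, unadjusted p = 0.00598). WT replicate 2 and ΔEGFR replicate 4 came within about 1 CPM of each other, and in TPM, which corrects for length, they overlapped (8.36 and 7.85). Rnf43, a ubiquitin ligase that removes Wnt receptors, stood at 16.6 to 22.9 CPM in WT and 26.1 to 62.8 in ΔEGFR. Tbx3, a transcription factor of pericentral hepatocytes, measured 7.27, 19.6 and 9.17 CPM in WT and 58.5, 43.2, 31.5 and 24.6 in ΔEGFR (1.71 ± 0.64, unadjusted p = 0.0181). ΔEGFR replicates 1 and 2 were the higher pair for both genes. Rhbg, an ammonium transporter, was low but apart, at 1.58 to 2.47 CPM in WT and 4.65 to 6.26 in ΔEGFR. Lect2, a secreted protein, and Gulo, the last enzyme of vitamin C synthesis, had log2 fold changes of 0.79 and 0.70 with overlapping groups.

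The programme was not uniform. Glul, glutamine synthetase of the innermost pericentral cells, measured 106, 179.9 and 248 CPM in WT and 199, 231, 181 and 122 in ΔEGFR (0.04, 95% interval −1.10 to 1.19). The 14 members with an unadjusted p of 0.05 or more ranged from −0.02 to 1.73, and 1 of them did not overlap. Leaving out single CCl4 libraries kept the median positive, from 0.38 without ΔEGFR replicate 4 to 1.02 without WT replicate 2, with 5 to 9 members at an unadjusted p under 0.05. The 22 periportal genes, those of the opposite zone, had a median of −0.21, with 7 positive. That median was 0.10 without WT replicate 1, −0.04 without WT replicate 2, −0.40 without WT replicate 3, −0.09 without ΔEGFR replicate 1 and −0.34 without ΔEGFR replicate 4. Cyp2f2, a periportal oxidase, measured 1054, 458 and 326 CPM in WT and 245, 325, 446 and 245 in ΔEGFR (−0.96, unadjusted p = 0.0443), and Hal, which breaks down histidine, 303, 118 and 113 CPM against 45.7, 72.7, 98.6 and 44.6. For both genes WT replicate 1 was the highest library. Asl, another periportal gene, went the other way, at 108.2 to 154.7 CPM in WT and 155.0 to 210.7 in ΔEGFR. Its groups were barely apart (0.43, unadjusted p = 0.214, edgeR). Among 39 phase I enzymes, a list that also holds Cyp2e1 and Cyp1a2, 5 were higher and 1 lower at an unadjusted p under 0.05 (1.32% and 0.962% of all genes). The higher count was 3 without WT replicate 3 and 9 without WT replicate 2, and the median of 0.51 was 0.15 without ΔEGFR replicate 4. The higher members included Cyp1a1, at 1.45 to 2.0 CPM in WT and 2.45 to 8.81 in ΔEGFR, and Fmo1, a flavin oxidase, at 86.2 to 129 against 123 to 185.

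**Figure D2:**
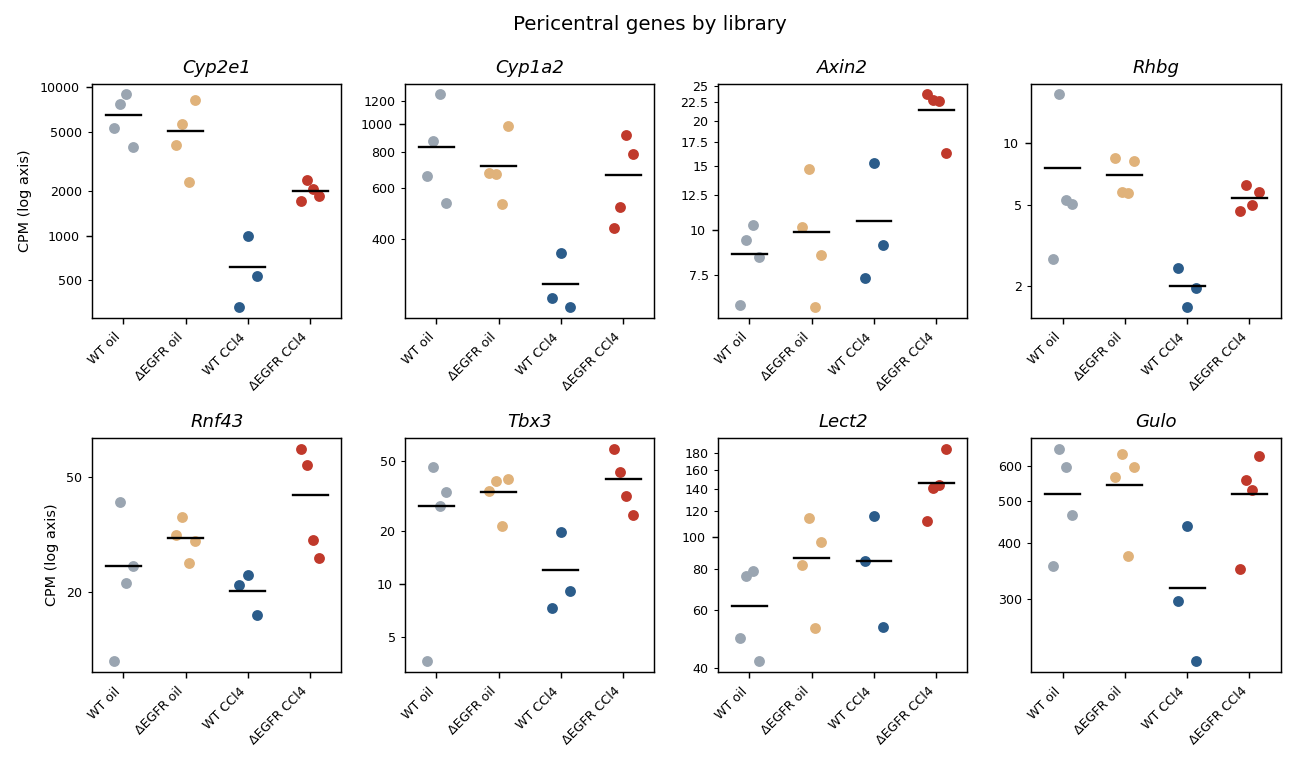
CPM (log axis) of the 8 pericentral genes with an unadjusted p under 0.05, 1 point per library, in the 4 groups named on the horizontal axis, with a bar at the group mean. Under CCl4 the red ΔEGFR points lie above all blue WT points for Cyp2e1, Cyp1a2, Axin2, Rhbg, Rnf43 and Tbx3 and overlap them for Lect2 and Gulo.

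Genes of the circadian clock formed another group with large log2 fold changes. In the clock, ARNTL with CLOCK or NPAS2 switches on Per, Nr1d and Dbp-type genes through E-box DNA (CACGTG), DBP, TEF and HLF act on D-boxes (TTATGTAA), which NFIL3 represses, and NR1D1 and NR1D2 repress Arntl, Npas2 and Nfil3 through ROR elements (TAGGTCA). To show the kinds of site these members carry, exact matches to the 3 motifs were searched on both strands in the 250 bases before each start site. Promoter sequence is from RefSeq on build GRCm38.p6, other than the build of the counts, and 10 of the 11 clock genes searched had an entry. Matches were found for 4 of them, Tef, Ciart, Per3 and Nfil3. Over 32851 promoters of the same length, the E-box occurred in 6.02%, the D-box in 0.819% and the ROR element in 2.23%. Each window below is 160 bases, 5′ to 3′ on the gene's strand, with the matched motif in capitals, E-boxes in Tef and Ciart, D-boxes in Per3 and the reverse complement of the ROR element in Nfil3. Tef lies on the plus strand at chr15:81802466-81802625, Ciart on the minus strand at chr3:95882265-95882424, Per3 on the minus strand at chr4:151044756-151044915 and Nfil3 on the minus strand at chr13:52981040-52981199.
Tef: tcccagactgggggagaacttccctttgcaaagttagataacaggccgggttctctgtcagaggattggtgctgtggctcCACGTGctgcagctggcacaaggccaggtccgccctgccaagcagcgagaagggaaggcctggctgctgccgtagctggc
Ciart: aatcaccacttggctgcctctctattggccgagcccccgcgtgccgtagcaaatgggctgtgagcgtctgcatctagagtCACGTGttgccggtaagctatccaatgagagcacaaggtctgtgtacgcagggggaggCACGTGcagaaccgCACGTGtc
Per3: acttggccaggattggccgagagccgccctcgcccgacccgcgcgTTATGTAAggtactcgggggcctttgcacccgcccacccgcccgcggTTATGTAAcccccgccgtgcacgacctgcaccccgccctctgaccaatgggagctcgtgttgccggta
Nfil3: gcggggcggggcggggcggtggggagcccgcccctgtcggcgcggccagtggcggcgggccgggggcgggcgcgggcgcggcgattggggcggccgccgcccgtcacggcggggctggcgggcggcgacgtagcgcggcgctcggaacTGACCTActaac
Tef has 1 E-box, Ciart has 3 and Per3 has 2 D-boxes. A match describes letters and is no measurement of binding. The motif CTTTGAT of Wnt-responsive TCF factors (3.21% of promoters) had no match in the same windows of Cyp2e1, Cyp1a2, Axin2 and Rnf43, which says only that these letters are not there.

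Dbp, Tef and Hlf, whose products act on D-boxes, were higher. Nfil3, whose product represses through D-boxes, was lower and is described below. Dbp measured 0.742, 1.98 and 1.72 CPM in WT and 118, 101, 21.0 and 9.92 in ΔEGFR. Its lowest ΔEGFR value was several times its highest WT value (5.39 ± 1.38, 95% interval 2.41 to 8.36, unadjusted p = 0.00175, adjusted p = 1, edgeR), and DESeq2 called it with an adjusted p of 0.00252 (adjusted p 0.00252 to 1 over the alternatives). Tef measured 10.5, 21.5 and 13.2 CPM in WT and 119, 126, 55.7 and 42.6 in ΔEGFR (2.51 ± 0.69, unadjusted p = 0.00282). Hlf measured 20.5, 22.8 and 12.1 CPM in WT and 49.8, 50.5, 30.1 and 30.3 in ΔEGFR (1.12 ± 0.36). None of the 3 genes overlapped between genotypes.

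Of the repressors of the loop, Per3, Nr1d2 and Ciart did not overlap, and Per2 and Nr1d1 did. Per3 measured 0.705, 1.51 and 0.919 CPM in WT and 17.7, 25.3, 5.26 and 4.60 in ΔEGFR (3.66 ± 1.10, unadjusted p = 0.00523). Per2 reached 42.5 and 54.6 CPM in ΔEGFR replicates 1 and 2 but 6.34 and 13.4 in replicates 3 and 4, against 5.57 to 9.25 in WT, so its groups overlapped. Nr1d2 stood at 11.9 to 25.1 CPM in WT and 33.0 to 70.0 in ΔEGFR without overlap (1.45 ± 0.46), while its paralogue Nr1d1 overlapped (8.37 to 58.4 against 41.4 to 125, unadjusted p = 0.0713). Ciart, a repressor of the clock, stood at 0.482 to 0.699 CPM in WT and 2.03 to 14.1 in ΔEGFR. Usp2, a rhythmic deubiquitinase, and Wee1, a cell cycle kinase under clock control, had log2 fold changes of 2.42 and 1.38 without overlap.

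Members of the opposite phase were lower or split. Nfil3 measured 56.9, 50.6 and 42.0 CPM in WT and 21.3, 16.9, 30.0 and 37.1 in ΔEGFR, with no overlap (−0.92 ± 0.33, unadjusted p = 0.015, adjusted p = 1, edgeR). Arntl measured 26.5, 25.7 and 20.8 CPM in WT and 3.36, 2.46, 12.8 and 25.5 in ΔEGFR. Npas2 measured 15.1, 8.34 and 9.49 CPM in WT and 0.412, 0.308, 2.56 and 9.07 in ΔEGFR. ΔEGFR replicate 4 thus reached the WT range for both, replicate 3 lay between, and replicates 1 and 2 were lowest, the reverse of their order for Dbp and Per3.

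In all, 9 of 21 tested clock genes were higher and 1 lower at an unadjusted p under 0.05 (1.32% and 0.962% of all genes), 8 lay wholly above and 1 wholly below, and the median was 0.60. Leaving out each CCl4 library gave medians of 0.46 to 0.79. For 7 members the interaction of genotype and treatment had an unadjusted p under 0.05, against 3.16% of all genes (1.57% in the higher and 1.59% in the lower direction), with 0 called. The interaction contains the CCl4 difference itself, so a low p there is no separate support. Of the 411 genes at an unadjusted p under 0.05 under CCl4, 128 were also below it for the interaction (edgeR). In mineral oil, Dbp spanned 26.5 to 177 CPM among WT libraries and 2.55 to 229 among ΔEGFR libraries, and its genotype difference was 0.39 (95% interval −1.77 to 2.54). The 3 WT CCl4 libraries were thus the lowest of the 15 for this gene. These genes oscillate over the day, and the labels give no time of sampling for any library. Genotype and time of sampling cannot be told apart here.

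**Figure D3:**
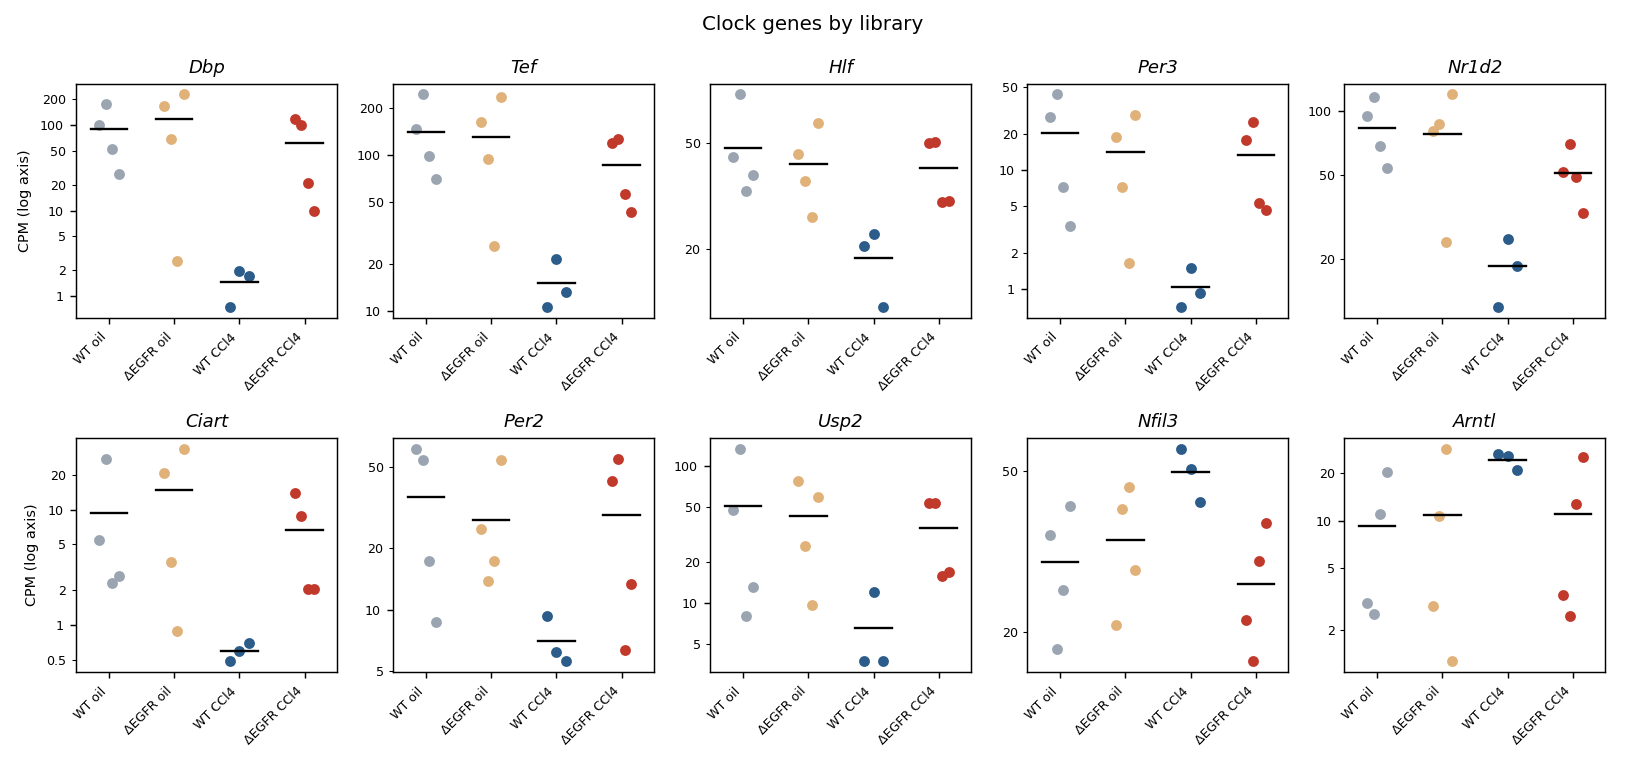
CPM (log axis) of 10 clock genes, 1 point per library with a bar at the mean, in the 4 groups on the horizontal axis. Under CCl4 the ΔEGFR points of Dbp, Tef, Hlf, Per3, Nr1d2, Ciart and Usp2 lie above the WT points and those of Nfil3 lie below. For Per2 and Arntl, 3 of 4 ΔEGFR points lie outside the WT range, above it for Per2 and below it for Arntl, and 1 lies within it.

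Lipid droplet genes went both ways. Plin2, the main coat protein of lipid droplets in hepatocytes, measured 672, 489.8 and 761 CPM in WT and 313, 315, 423 and 356 in ΔEGFR, with no overlap (−0.87 ± 0.24, 95% interval −1.39 to −0.34, unadjusted p = 0.00335, adjusted p = 1, edgeR). In mineral oil the sign was opposite, with 217 ± 52.4 CPM in WT and 321 ± 81.6 in ΔEGFR (SD, n = 4 each; 0.57, unadjusted p = 0.026), and the interaction had an unadjusted p of 0.000801 (adjusted p = 1). Hilpda, a droplet protein that inhibits lipolysis, stood at 3.41 to 16 CPM in WT and 3.13 to 4.06 in ΔEGFR, with overlap (−1.36). Plin4, another coat protein, was higher, at 1.54 to 2.67 CPM in WT and 3.38 to 5.08 in ΔEGFR (1.09 ± 0.31). Thrsp, a regulator of fatty acid synthesis, measured 46.5, 53.7 and 32.2 CPM in WT and 226, 335, 124 and 136 in ΔEGFR (2.22 ± 0.74, unadjusted p = 0.0103). Dgat2, which makes triglyceride, stood at 102 to 213 CPM against 251 to 389, and G0s2, an inhibitor of the lipase ATGL, at 8.60 to 13.2 against 15.5 to 55.9. Of 39 tested lipogenesis and droplet genes, 5 were higher and 2 lower at an unadjusted p under 0.05 (1.32% and 0.962% of all genes), and the median was 0.20. Without WT replicate 3 the median was 0.01 with 2 higher, without ΔEGFR replicate 4 it was 0.06, and leaving out the other CCl4 libraries gave up to 0.29 and 3 to 7 higher.

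Genes of fatty acid burning leaned upward by small amounts. Of 36 fatty acid oxidation and ketogenesis genes 35 were positive, with a median of 0.36 (0.18 in mineral oil), and 2 were higher at an unadjusted p under 0.05 (1.32% of all genes). The higher count was 0 without WT replicate 1, WT replicate 3 or ΔEGFR replicate 1, 1 without ΔEGFR replicate 3 or 4, 3 without ΔEGFR replicate 2 and 8 without WT replicate 2, and the median was 0.16 without ΔEGFR replicate 4. Acaa1a, a peroxisomal thiolase, stood at 82.8 to 123 CPM in WT and 134 to 167 in ΔEGFR (0.58), and Vnn1, a pantetheinase induced by PPAR-alpha, at 6.51 to 12 against 13.5 to 21.6 (0.89). All 31 tested nuclear genes of the respiratory chain were positive, with a median of 0.17 (0.09 without WT replicate 3, 0.07 without ΔEGFR replicate 4) and 1 member, Cox7a2 (0.47), at an unadjusted p under 0.05. Ppard, the PPAR-delta receptor, measured 47.4, 37.4 and 26.7 CPM in WT and 12.4, 16.3, 15.3 and 23.3 in ΔEGFR, without overlap (−1.14 ± 0.37, unadjusted p = 0.00869).

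The genes with the lowest unadjusted p and no overlap also included some outside these groups. Nxpe2, a gene of the neurexophilin-like family, measured 1.04, 1.58 and 1.24 CPM in WT and 3.66, 7.29, 4.72 and 4.05 in ΔEGFR (fold 3.83, log2 1.94 ± 0.41, unadjusted p = 0.00036). DESeq2 called it with an adjusted p of 0.0392, and edgeR did not (adjusted p = 1; 0.0392 to 1 over the alternatives). Klhdc7a, a kelch-domain gene, stood at 13.6 to 19.9 CPM against 26.9 to 35.0 (0.97 ± 0.23), and Aqp11, an intracellular aquaporin, at 12.7 to 18.2 against 26.3 to 37.3 (0.95 ± 0.26). Dclre1a, a DNA crosslink repair nuclease, and Cpm, a carboxypeptidase, had log2 fold changes of 0.49 and 1.07. Inhbe, the activin E subunit secreted by hepatocytes, was even within each genotype, with 10.7, 9.85 and 10.2 CPM in WT and 26.5, 29.5, 22.1 and 30.8 in ΔEGFR (1.41 ± 0.59, unadjusted p = 0.0337).

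In the lower direction Gadd45g, a stress gene, measured 157, 17.7 and 85.2 CPM in WT and 12.8, 17.2, 10.3 and 15.5 in ΔEGFR (−2.63 ± 0.72, unadjusted p = 0.0029). WT replicate 2 came within 1 CPM of the highest ΔEGFR library. Rab21, an endosomal GTPase, stood at 43.6 to 53.1 against 38.0 to 40.0 (−0.33) and Arap1, a GTPase-activating protein linked to receptor trafficking, at 102 to 122 against 72.7 to 89.8 (−0.48). Hnrnpd, an RNA-binding protein that destabilizes messages, and Srsf2, a splicing factor, had log2 fold changes of −0.54 and −0.40. Fam168a and Wsb1 stood at −0.35 and −0.97. Arap1 and Rab21 were also lower in ΔEGFR in mineral oil, at −0.38 and −0.23 with unadjusted p of 0.0182 and 0.0405.

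**Figure D4:**
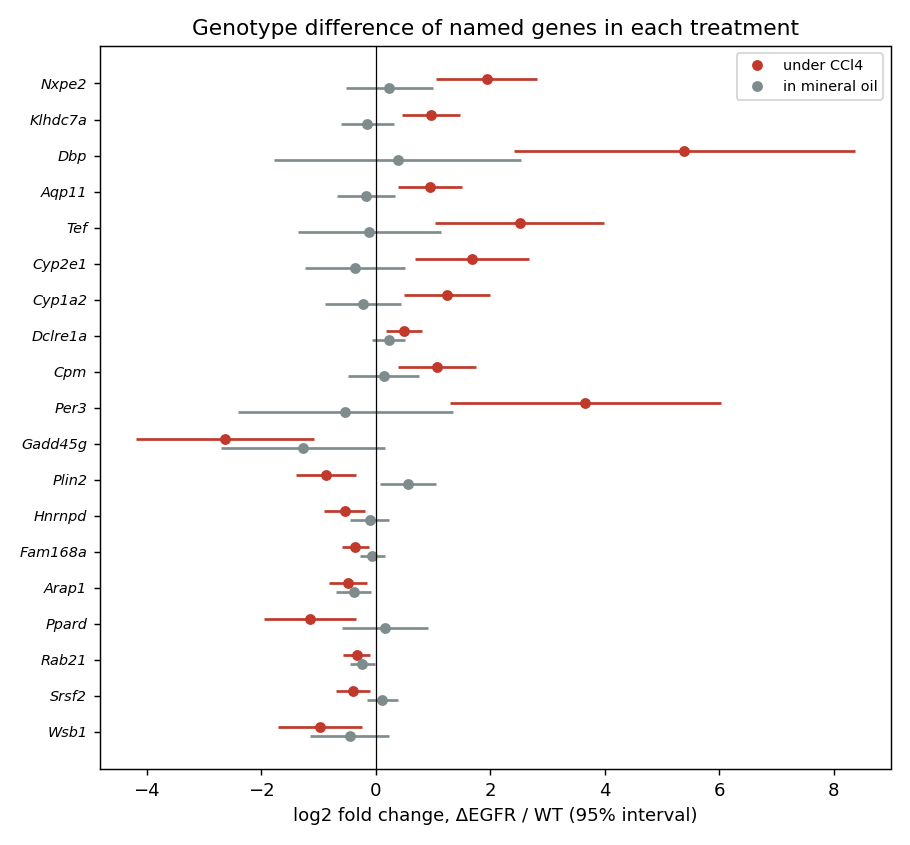
Log2 fold change of ΔEGFR over WT with its 95% interval for genes taken from the 10 in each direction with the lowest unadjusted p under CCl4 among genes whose groups did not overlap, in red under CCl4 and in grey in mineral oil. The red values were used to choose the genes; the grey values come from other libraries, and for Plin2 the 2 intervals lie on opposite sides of 0.

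The mineral oil libraries gave little repetition. They do not enter the group means under CCl4, but both comparisons use the same estimate of the spread. Their p-values are therefore not independent. Of the 411 genes at an unadjusted p under 0.05 under CCl4, 235 (57.2%) had the same sign in mineral oil, against 56.6% of all tested genes. An unadjusted p under 0.05 in mineral oil was found for 36 of the 411 (8.76%), against 6.66% of all genes, and 27 of the 36 had the same sign. The interaction of genotype and CCl4 had 0 called genes and 568 at an unadjusted p under 0.05 (3.16%). DESeq2 called 2 for it, limma on log2(TPM + 1) called 1 and limma-voom called 0.

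Collagen and scar matrix genes overlapped between the genotypes. Col1a1, the main scar collagen, measured 91.1, 31.2 and 26.6 CPM in WT and 33.5, 102, 18.5 and 22.9 in ΔEGFR (−0.16, 95% interval −1.93 to 1.60). The 39 collagen and matrix genes had a median of −0.08, and 0 had an unadjusted p under 0.05. The median had no stable sign, at 0.64 without WT replicate 1, 0.06 and 0.09 without ΔEGFR replicates 1 and 3, −0.01 without ΔEGFR replicate 4, −0.32 and −0.31 without WT replicates 2 and 3 and −0.45 without ΔEGFR replicate 2. Tgfb1, the central profibrotic cytokine, stood at 46.2 to 104 CPM against 51.4 to 82.4. Among 34 matrix proteases, inhibitors and crosslinkers, 1 was higher and 2 were lower at an unadjusted p under 0.05 (1.32% and 0.962% of all genes), counts of 0 to 1 and 0 to 2 as single CCl4 libraries were left out. Their median of −0.32 was 0.03 without WT replicate 1, −0.51 without WT replicate 2, −0.65 without ΔEGFR replicate 2 and −0.19 without ΔEGFR replicate 3 or 4. Mmp15, a membrane-type protease, was the higher (0.89, unadjusted p = 0.0319, adjusted p = 1, edgeR), and Plod3, a collagen lysyl hydroxylase, was among the lower (−0.31, unadjusted p = 0.0426, adjusted p = 1, edgeR).

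The cytoskeleton and dedifferentiation list leaned lower, with 31 of 39 members negative and a median of −0.42 (−0.22 without WT replicate 1, −0.24 without WT replicate 3), against 0.33 in mineral oil. Actb, beta-actin, measured 2789.5, 1989 and 2711 CPM in WT and 1523, 1606, 1550.4 and 1410.3 in ΔEGFR (−0.71 ± 0.32, unadjusted p = 0.0448, adjusted p = 1, edgeR), without overlap. Krt18, a hepatocyte keratin, measured 899.9, 286 and 280.0 CPM in WT and 309, 217, 289 and 215 in ΔEGFR, where WT replicate 1 was far above the rest.

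Macrophage genes of the scar were on the low side. All 17 scar-associated macrophage genes were negative, with a median of −0.67, and 0 had an unadjusted p under 0.05. The median was −0.22 without WT replicate 3 and −1.06 without WT replicate 1, where 3 members were lower at that threshold. Trem2, a lipid receptor of these cells, measured 35.8, 133 and 125 CPM in WT and 61.5, 98.5, 72.5 and 47.3 in ΔEGFR, so WT held both the lowest and the highest values. The score of this list was 7.57 to 9.43 across WT libraries and 8.02 to 8.52 across ΔEGFR libraries. All 14 neutrophil markers were negative too, with a median of −1.32 (−0.65 without WT replicate 2, −2.07 without ΔEGFR replicate 3) and scores of 3.20 to 4.97 against 1.28 to 4.12. Their median in mineral oil was −2.57, and 0 had an unadjusted p under 0.05 in either treatment. The part of these cells in the hepatocyte differences was not tested.

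Acute phase genes depended on 1 library. Of 30 tested members 27 were negative, with a median of −0.66, which was 0.01 without WT replicate 1. Fga, the fibrinogen alpha chain, measured 8317, 3579.6 and 3283 CPM in WT and 2242, 2230.0, 3419 and 3603 in ΔEGFR, with WT replicate 1 far above the other 6. Cell cycle genes had the opposite sign, with 34 of 40 positive and a median of 0.84, but 0 had an unadjusted p under 0.05. The median was 0.13 without ΔEGFR replicate 4 and 0.45 without WT replicate 1. In mineral oil the median of the cell cycle list was larger, at 1.1. There 6 members were higher at an unadjusted p under 0.05, against 2.54% of all genes.

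Some genes of the fetal liver were higher at low levels. H19, an imprinted long RNA, measured 0.167, 0.307 and 0.177 CPM in WT and 0.514, 0.876, 0.420 and 4.09 in ΔEGFR, and Dlk1, a Notch-like ligand, 0.0556, 0.184 and 0.0526 against 0.742, 0.900, 0.387 and 0.216. Gpc3, a fetal glypican, stood at 1.21 to 2.41 CPM against 3.69 to 8.74. Igf2bp2, an RNA-binding protein, went the other way, with 10.2, 9.79 and 26.6 CPM in WT and 4.43, 6.90, 7.62 and 7.13 in ΔEGFR. Of the 15 tested oncofetal genes 3 were higher and 1 lower at an unadjusted p under 0.05 (1.32% and 0.962% of all genes), with a median of 0.48 (0.67 in mineral oil). The higher count was 1 without WT replicate 1, WT replicate 3 or ΔEGFR replicate 4 and 2 without ΔEGFR replicate 2 or 3, and the median was 1.0 without WT replicate 2.

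**Figure D5:**
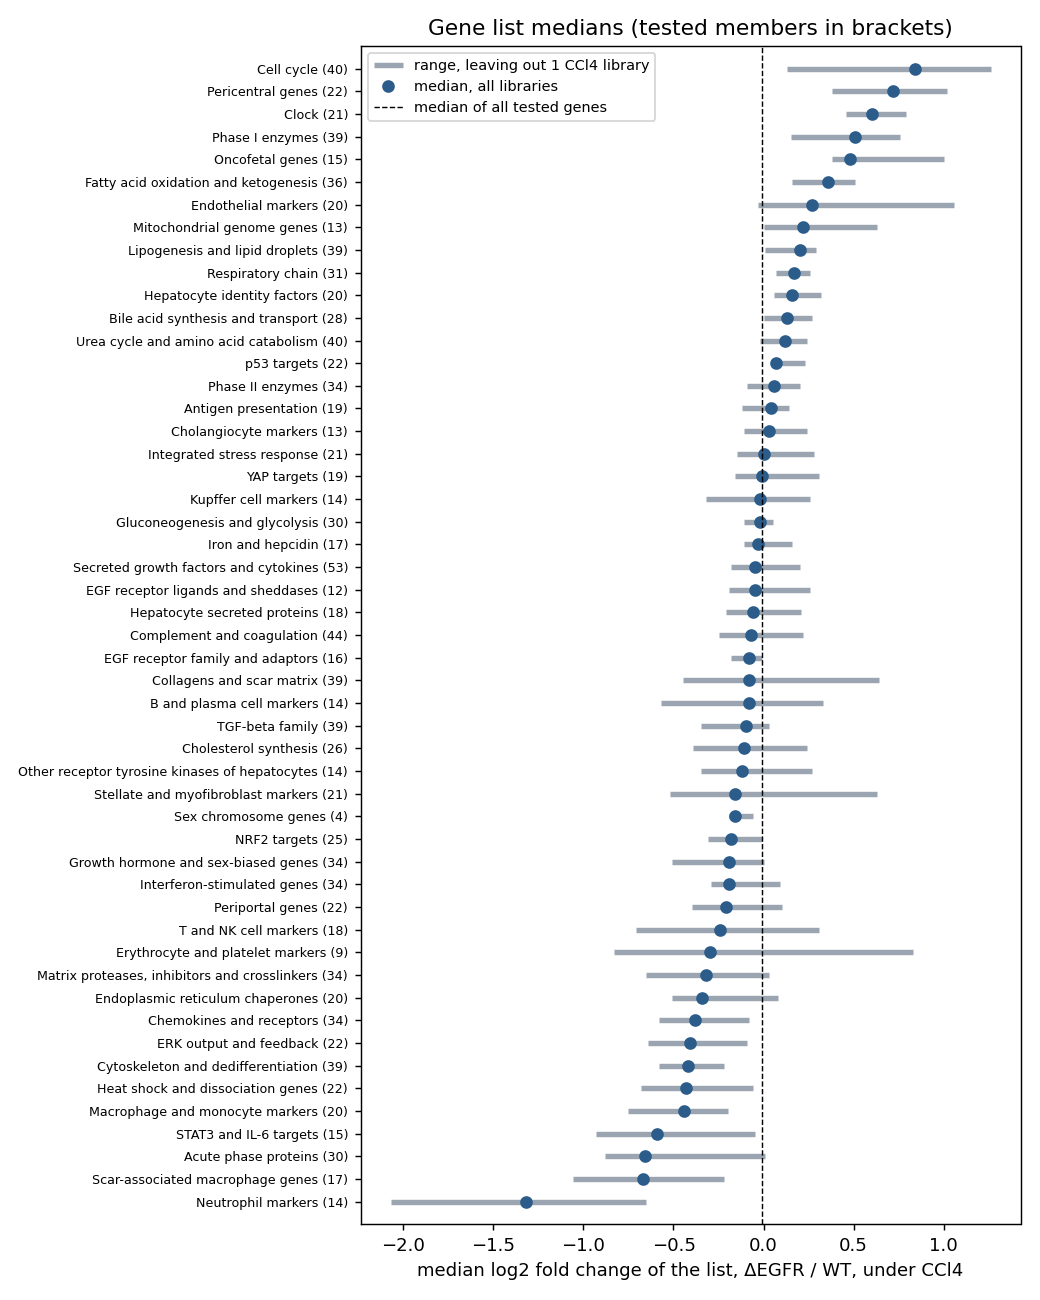
Median log2 fold change of ΔEGFR over WT under CCl4 for each of 51 gene lists (points, number of tested members in brackets), with grey bars spanning the medians when single CCl4 libraries were left out and a dashed line at the median of all tested genes. The pericentral, clock and oncofetal bars stay above 0, the cytoskeleton, scar macrophage and neutrophil bars stay below, and the acute phase bar reaches 0.01. Many other bars do not cross 0 either. Among them are cell cycle, phase I and fatty acid oxidation above, and ERK output, heat shock and macrophage markers below.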

How the data were processed

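Messenger RNA of mouse hepatocytes was sequenced from libraries made with a stranded kit, per the labels' protocols. The authors aligned reads to GRCm39 with STAR 2.7.8a and, per the submitters' processing notes, obtained gene values with RSEM 1.3.0; annotation release and strand setting are not given in the sources used here. The deposited files hold RSEM expected counts for 56953 Ensembl genes, without molecular identifiers, and TPM, which the authors' RSEM run derived. An annotation table of another build named 52029 IDs (91.4%).

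Expected counts were rounded, filtered with filterByExpr (minimum count 10, minimum total 15; 17975 genes), TMM-scaled and fitted with edgeR 4.0.16 in R 4.3.3 by robust quasi-likelihood over all 15 libraries, with 1 mean per group; the biological coefficient of variation was 50.9%. Adjustment was Benjamini-Hochberg over all genes at 0.05. Intervals are 95%. Scores used log2 CPM with a prior count of 2. Alternatives used DESeq2 1.42.0 and limma 3.58.1 (TPM pseudocount 1). The fit was tested on simulated data.

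The 51 lists hold 1301 entries. Of their 1174 different genes, 9 had no match in the files and 28 were not tested. Genes were named by rule: up to 10 per direction by unadjusted p, among non-overlapping genes whose log2 CPM averaged 2 or more, list members with the lowest p in each direction, and a set bearing on the question. Pericentral, clock and oncofetal members and a few low-count genes beyond it were chosen after their values were seen. All members and lists were chosen with earlier results of these data known. One gene that the rule names is not reported here. Replicates were numbered in order of deposit.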

Additional observations from a re-analysis of the deposited data

Results flagged for a closer look

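Among the 4 ΔEGFR CCl4 libraries, 84 genes and 11 marker scores were checked for a library standing apart from the other 3 by Dixon's test, whose ratio is the gap to the nearest value over the whole range. There were 3 such cases of 95, and chance alone gives about 1 in 20. Axin2 had a ratio of 0.873, with replicate 4 lowest at 16.3 CPM against 22.7 to 23.7. G0s2 had a ratio of 0.835, with replicate 1 highest at 55.9 CPM against 15.5 to 22.2. H19 had a ratio of 0.876, with replicate 4 highest at 4.09 CPM against 0.420 to 0.876. The WT group of 3 was too small to check.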

How the results depend on the processing

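No paired analysis was possible because the labels carry no replicate numbers and tie no WT library to a ΔEGFR library. The count of 0 called genes under CCl4 became 2 with DESeq2 (Dbp and Nxpe2) and 1 (Gm11868, lower) when only the CCl4 libraries were fitted without ΔEGFR replicate 4; in the other settings run it was 0. For the interaction it became 2 with DESeq2 and 1 with limma on log2(TPM + 1). The count at an unadjusted p under 0.05, 411, was 734 with no low-count filter, 750 in a fit of only the 7 CCl4 libraries, 656 with a covariate for depth class (above or below 80 M counts, mega) and 119 when tested against a fold of 1.5. Leaving out single libraries gave 233 (without WT CCl4 replicate 3) to 651 (without WT CCl4 replicate 2), and in fits of the CCl4 libraries alone 1465, 1059 and 427 with WT replicate 1, 2 or 3 left out and 620, 675, 685 and 706 with ΔEGFR replicate 1, 2, 3 or 4 left out. That last set was chosen after seeing the data. Many of the 84 genes followed had been named for a low p or for groups that did not overlap. A kept sign was thus largely fixed by that choice. Of the 84, 79 kept their sign in every setting run. The other 5 were near 0. Col1a1 was 0.01 with no scaling factor, and Glul −0.01 and Alb 0.24 with the depth covariate. Over left-out libraries Glul ranged from −0.23 to 0.39, Alb from −0.39 to 0.19, Col1a1 from −0.99 to 0.63 and Hnf4a from −0.02 to 0.44. In fits of the CCl4 libraries alone the changed signs were, without WT replicate 1, Glul −0.21, Alb 0.19, Col1a1 0.65 and Ccnd1 0.01; without WT replicates 2 and 3, Alb 0.01 and Hnf4a −0.04; without ΔEGFR replicate 1, Alb 0.13; without replicate 2, Alb 0.05 and Glul −0.09; and without replicates 3 and 4, Col1a1 0.12 and 0.08. The cause of these moves was not tested. With 3 and 4 libraries per group and a spread shared by all 15, the typical half-width of 0.776 on the log2 scale limits what can be seen. The biological coefficient of variation was 50.9% over the 15 libraries and 35.2% in an edgeR fit of only the 7 CCl4 libraries. In that fit of 7 the lowest adjusted p was 0.29, with 0 called. Genes such as Erbb4, Dlk1 and H19 rest on few counts.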

Other observations

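Meg3 and Rian, long RNAs from the imprinted region that also holds Dlk1, were higher in ΔEGFR under CCl4 and were singled out after their values were seen. Meg3 measured 0.371, 0.476 and 0.517 CPM in WT and 2.48, 5.44, 1.98 and 1.81 in ΔEGFR (log2 fold change 2.68 ± 0.85, unadjusted p = 0.00752, adjusted p = 1, edgeR). Rian measured 0.501, 0.553 and 0.426 CPM in WT and 1.28, 3.93, 1.19 and 1.67 in ΔEGFR (2.03 ± 0.60, unadjusted p = 0.00461, adjusted p = 1, edgeR). Neither gene overlapped between the genotypes, and ΔEGFR replicate 2 was highest for both. In mineral oil the differences were −0.26 and −0.34, with unadjusted p of 0.723 and 0.533.

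Cish, a feedback inhibitor induced by STAT5, measured 42.5, 3.49 and 43.2 CPM in WT and 3.96, 9.53, 2.45 and 1.80 in ΔEGFR (−2.74 ± 0.89, unadjusted p = 0.00846, adjusted p = 1, edgeR), with WT replicate 2 inside the ΔEGFR range. Onecut1, a hepatocyte transcription factor, measured 48.5, 10.8 and 73.7 CPM in WT and 16.4, 13.1, 5.60 and 7.26 in ΔEGFR, and the same WT library was again within the range. Of 34 growth hormone and sex-biased genes, a list that holds Cish but not Onecut1, 22 were negative (9150 of 17975 over all genes) and 12 positive, with a median of −0.19. At an unadjusted p under 0.05 there were 3 lower (0.962% of all genes) and 0 higher. As single CCl4 libraries were left out the lower count was 1 to 5 and the median ranged from −0.51 without ΔEGFR replicate 4 to 0.00 without WT replicate 1.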
